A study of Mus musculus with 2 samples.

Results

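The transcription factor genes Tbx21, Eomes, Zeb2, Prdm1, Hopx, Zfp683, Runx3 and Bhlhe40, which belong to the type-1 effector programme, were followed across the γδ T cells of mouse liver and thymus. They were picked out by gene symbol, 8 of the 27998 genes listed, and each symbol matched 1 gene. Raw counts of unique molecular identifiers (UMIs, one for each captured transcript) were taken from cells with 800 to 4000 detected genes and at most 6% mitochondrial UMIs. The rule itself uses no measured value, but the list was drawn up with earlier results of these data known.

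γδ T cells are lymphocytes whose antigen receptor pairs a γ with a δ chain, and those that make IFN-γ are called type-1. Tbx21 encodes T-bet and Eomes encodes Eomesodermin, related T-box activators that open cytotoxic and IFN-γ genes in T cells and NK cells. Zeb2 is a repressor that acts with T-bet in terminally differentiated killer lymphocytes, Prdm1 (Blimp-1) and Zfp683 (Hobit) are zinc-finger repressors known from tissue-resident lymphocytes, and Hopx is a small homeodomain protein without DNA binding of its own. Runx3 is the Runt-family factor of CD8+ and cytotoxic lineages, and Bhlhe40 is a helix-loop-helix repressor that restrains IL-10 in T cells. In the liver, type-1 γδ T cells lie beside IL-17-making ones, which follow another set of factors.

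Both libraries came from untreated wild-type C57BL/6J mice aged 8 weeks, with 1 library of CD3e+ TCRγδ+ cells sorted from the liver and 1 sorted from the thymus. The thymic cells alone were first depleted with beads against CD4 and CD8. Cells of several mice were used, but how the mice were divided between the libraries is not stated in the sources used here, and animals cannot be told apart within a library. With 1 library per tissue there was no replicate and no test, and tissue cannot be told apart from the preparation of its library.

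The hepatic library held 8658 barcodes and 25040963 UMIs, of which 8075 cells were kept with a median of 2741 UMIs. The thymic library held 4541 barcodes and 17371662 UMIs, of which 4351 cells were kept with a median of 3271 UMIs. The libraries shared 60 barcode sequences, and leaving those cells out left every count of members past 2-fold as it was. Each level is given in CPM, for which a gene's UMIs were added up across a class and scaled to a class total of 1000000, and is compared between classes and not between genes. Ranges in parentheses after a CPM or a ratio are exact 95% intervals, Poisson for levels and conditional binomial for ratios, and cover counting error only. To compare how many cells had a UMI, every cell was first thinned to 1500 UMIs, which left out 5 hepatic and 7 thymic cells. Where cells with a member's UMI are set against cells without it, marker UMIs were counted without thinning.

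Joint clustering, with the 8 genes kept out of the variable genes, gave 11 clusters, which were named after the clusters of the study from marker genes. C1-like cells (2450 thymic and 4 hepatic) joined cluster 3, led by Slc35d1 and Tnfsf11, and cluster 4, led by Igfbp4, Tox2 and Cpa3. C3-like cells (181 thymic, 1119 hepatic) carried Ly6c2 and Dapl1. C6-like cells (165 thymic, 795 hepatic) carried Il17a. The C4-like (2891), C5-like (2717) and C7-like (264) cells were hepatic apart from 2 thymic cells in each, and carried Cd40lg and Socs2, Ccl4 and Gzmb, or Klra7 and Klrg1. Cluster 5, with 1007 thymic and 52 hepatic cells, had S1pr1, Cd200 and 3 hemoglobin genes among its leading genes and stayed unnamed, as did cycling cluster 7 (534 thymic and 59 hepatic cells) and interferon-induced cluster 10 (69 hepatic cells). The mean log2 marker ratio of cluster 5 was highest for the C2-like class, at 1.33 against -0.145 for the C1-like class. Its hemoglobin genes barred the C2-like name. T cell markers were present throughout, with Cd3d, Cd3e and Cd3g summing to between 2326 and 4932 CPM in every class but the C8-like one. C8-like cells (105 hepatic) carried Lyz2, Apoe and Cd74, the 3 CD3 genes summed to 846 CPM there, and 72 of the 105 had a CD3 UMI, so this class goes against the label of sorted T cells. The defining Kupffer cell genes summed to 2333 CPM in C8-like cells and to at most 12.2 CPM elsewhere.

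The promoters of the T-box pair and of Runx3 are shown because the T-box genes divided the classes while Runx3 was present in all of them. Windows of 250 bases before the start site were taken from RefSeq on GRCm38.p6, which held 6 of the 8 genes. In Tbx21 and Runx3, capitals mark matches to the ZEB E-box CACCTG or its reverse complement CAGGTG. In Runx3 they also mark matches to the RUNX motif TGTGGTT or its reverse complement AACCACA.
Tbx21 (chr11:97115332-97115581, minus strand): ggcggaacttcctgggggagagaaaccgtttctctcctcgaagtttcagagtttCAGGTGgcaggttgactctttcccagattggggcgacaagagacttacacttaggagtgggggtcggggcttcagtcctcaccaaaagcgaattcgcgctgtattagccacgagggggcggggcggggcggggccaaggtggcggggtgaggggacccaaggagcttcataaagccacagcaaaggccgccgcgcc
Eomes (chr9:118477939-118478188, plus strand): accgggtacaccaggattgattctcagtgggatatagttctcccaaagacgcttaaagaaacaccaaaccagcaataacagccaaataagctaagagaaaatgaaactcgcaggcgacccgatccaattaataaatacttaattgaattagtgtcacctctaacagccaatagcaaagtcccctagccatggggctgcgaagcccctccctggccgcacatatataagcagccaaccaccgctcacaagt
Runx3 (chr4:135120395-135120644, plus strand): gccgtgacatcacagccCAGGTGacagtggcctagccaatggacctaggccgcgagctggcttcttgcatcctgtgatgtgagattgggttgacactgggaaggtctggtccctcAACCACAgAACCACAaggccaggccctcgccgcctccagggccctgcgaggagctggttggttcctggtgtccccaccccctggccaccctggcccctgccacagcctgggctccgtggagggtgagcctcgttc
Each window ends at the last base before its start site. The Tbx21 window held a ZEB E-box 196 to 191 bases before the start, and the first Runx3 start site had RUNX motifs at 135 to 129 and 127 to 121 bases with a ZEB E-box at 233 to 228. None of the 5 motifs searched on both strands was in the Eomes window. The window of the second Runx3 start site (chr4:135152295-135152544), which is not printed, held none of them either. Across all 32851 windows, CACCTG was present in 17.2%, TGTGGTT in 4.4%, the T-box site GGTGTGA in 3.33%, the E-box CACGTG in 6.02% and the Blimp-1 core AAGTGAAA in 1.36%. A match describes letters only.

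**Figure D1:**
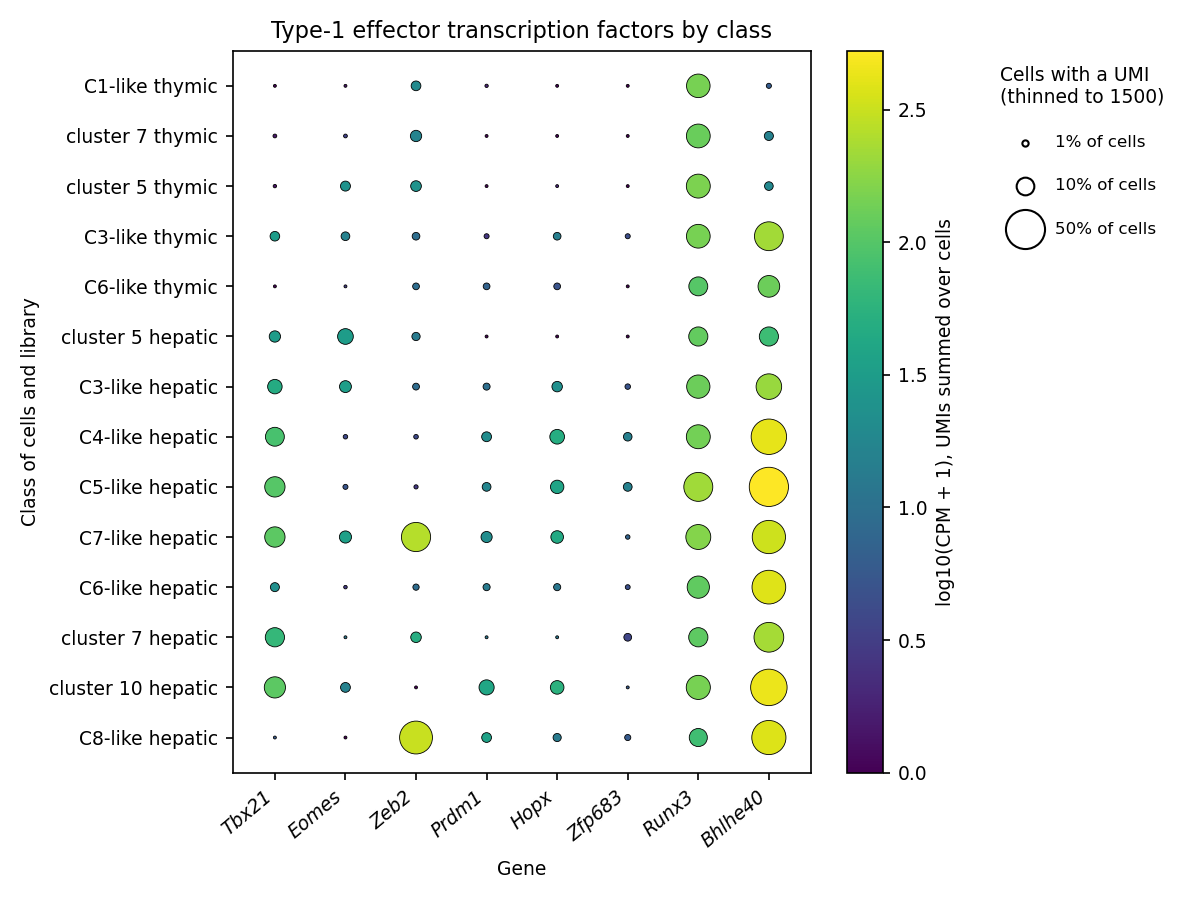
Each row is a class of cells in 1 library and each column a gene. Dot area grows with the percentage of cells with a UMI after thinning to 1500 UMIs, and colour gives log10(CPM + 1) from summed UMIs. Tbx21, Hopx and Zfp683 are seen mainly in hepatic T cell rows, and Prdm1 mainly in hepatic rows, the C8-like one among them. Zeb2 stands out in C7-like and C8-like cells, and Runx3 is present in every row.

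Over all cells, Tbx21 was at 75.6 CPM (72.2 to 79.1) in the liver and 1.29 CPM (0.808 to 1.95) in the thymus, a ratio of 58.6 (38.6 to 93.8). Another 4 members were higher in the liver by at least 2-fold, namely Zfp683 by 90.7-fold (24.9 to 753, from 257 and 2 UMIs), Hopx by 40.2-fold (24.2 to 72.1), Prdm1 by 25.8-fold (14.3 to 52.1) and Bhlhe40 by 18.8-fold (16.9 to 20.9). Eomes was 1.55-fold higher (1.22 to 1.99), Runx3 1.11-fold higher (1.06 to 1.17) and Zeb2 at a ratio of 0.98 (0.847 to 1.13). Of 10869 genes with at least 50 UMIs over both libraries, 12.1% were at least 2-fold higher in the liver and 16.9% at least 2-fold lower, against 5 and 0 of the 8 members. The libraries differ in their classes, so these ratios mix the class sizes with the levels within a class. Those levels follow by gene.

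Tbx21, on the minus strand of chromosome 11 (97098071 to 97115331, GRCm38), was absent from C1-like thymic cells, with 0 UMIs in 2450 cells and an upper limit of 0.427 CPM. It was near absent in the 2 large unnamed thymic clusters, with 1 UMI in cluster 5 and 2 UMIs in cycling cluster 7. No UMI was seen in the 165 C6-like thymic cells either, where the smaller total allowed up to 7.59 CPM. The C3-like thymic cells had 30.5 CPM (18.1 to 48.2) and held 18 of the 22 thymic UMIs.

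In the liver, Tbx21 was at 44.9 CPM (38.4 to 52.3) in C3-like cells, 84.3 CPM (78.2 to 90.8) in C4-like cells, 99.7 CPM (92.7 to 107) in C5-like cells and 109 CPM (87.0 to 134) in C7-like cells. The C4-like interval lay below that of C5-like cells, and both overlapped that of C7-like cells. C6-like hepatic cells were lowest among the T cell classes, at 21.9 CPM (16.5 to 28.5), while C8-like cells had 2 UMIs, both in 1 cell of 16574 UMIs. The 53 C6-like cells with a Tbx21 UMI had a median of 4385 UMIs against 2700 in the other 742, and removing the cells with the highest doublet scores left 15.8 CPM. The part of doublets in this level was not tested. Shares of cells followed the levels, with 6.62% of C3-like, 11.4% of C4-like, 13.3% of C5-like, 13.3% of C7-like and 2.39% of C6-like hepatic cells having a Tbx21 UMI, against 0 of 2447 C1-like cells, which allows up to 0.123% of cells with a UMI by the floor of 3 counts, or 0.151% by the exact interval.

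Eomes, the other T-box gene (chromosome 9, 118478212 to 118486132, plus strand), had a different distribution. It was at 31.9 CPM (26.4 to 38.3) in C3-like hepatic cells and 33.7 CPM (22.2 to 49.1) in C7-like cells, and at only 2.87 CPM (1.84 to 4.27) in C4-like and 4.19 CPM (2.87 to 5.92) in C5-like cells, the 2 largest hepatic classes. C6-like hepatic cells were at 1.99 CPM (0.646 to 4.64) and no UMI was found in C8-like cells. The intervals of C3-like and C7-like cells lay above those of C4-, C5- and C6-like cells, a grouping made after the values were seen. Hepatic cluster 7, at 10.8 CPM (2.93 to 27.6), and cluster 10, at 14.8 CPM (3.05 to 43.3), overlapped both groups.

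In the thymus, Eomes was at 23.2 CPM (18.3 to 29.1, 75 UMIs) in cluster 5, where Tbx21 had 1 UMI, and at 15.2 CPM (6.97 to 28.9, 9 UMIs) in C3-like cells. C1-like cells had 3 UMIs, or 0.348 CPM. The 52 hepatic cells of cluster 5 were at 30.5 CPM (9.90 to 71.2, 5 UMIs). Cluster 5 therefore had Eomes with almost no Tbx21 in the thymus, while its few hepatic cells had 5 UMIs of each. All 50 thymic cluster 5 cells with an Eomes UMI had a CD3 UMI, and 2 of the 50 had a UMI of Tyrobp or Fcer1g, adaptor genes of NK cells, against 51 of the other 957.

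**Figure D2:**
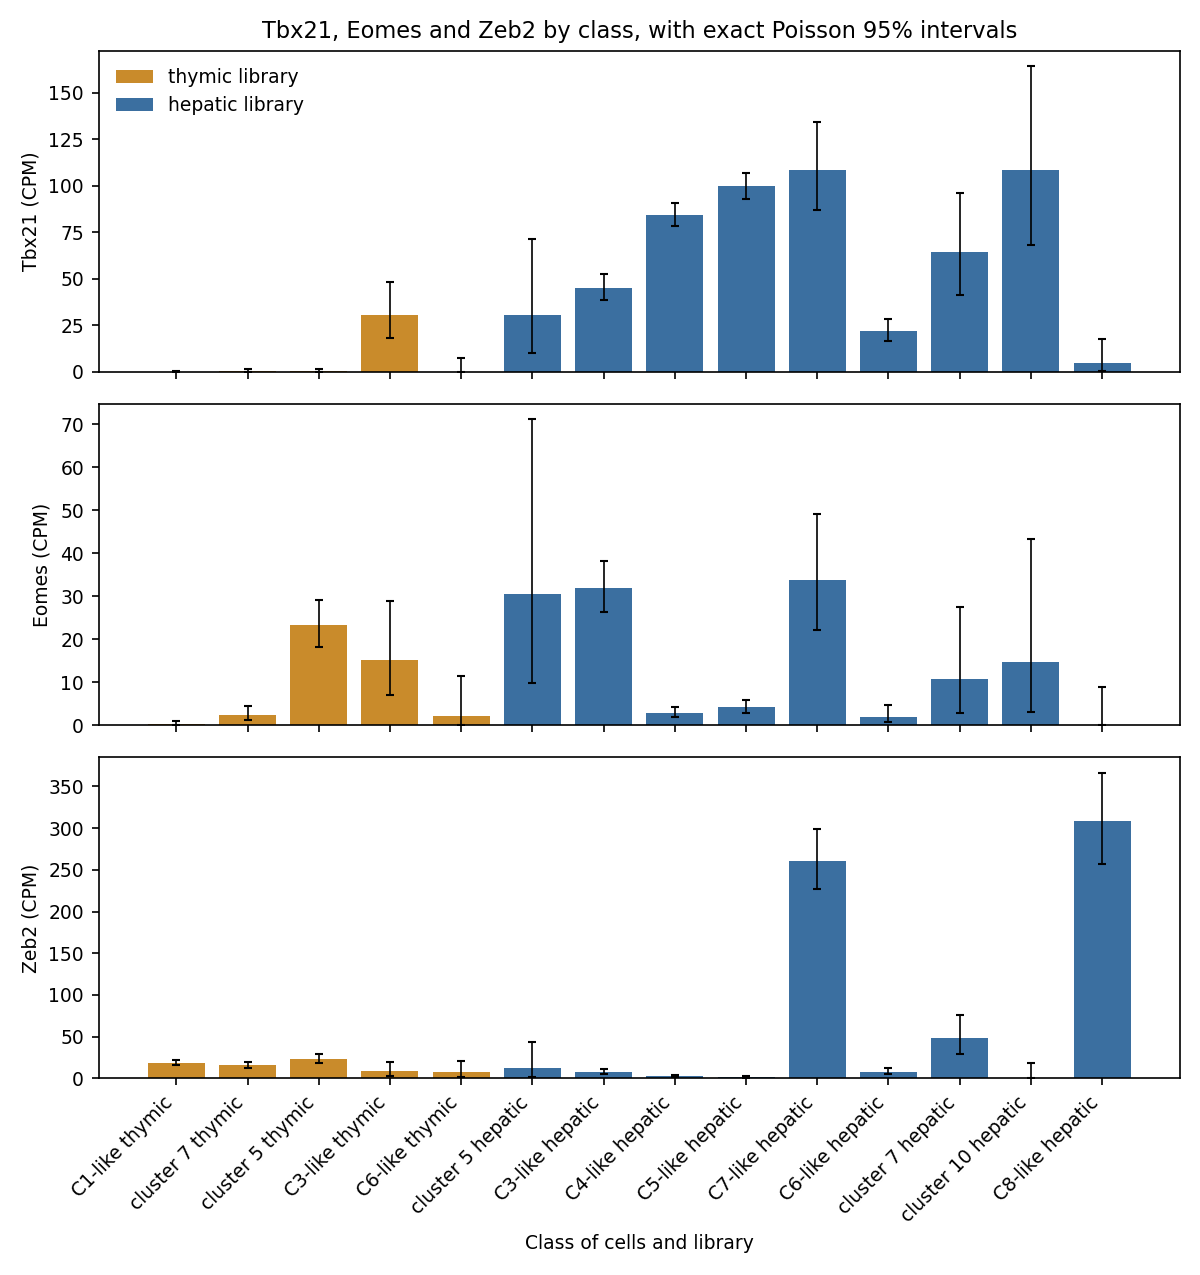
Bars give CPM from UMIs summed over each class, with exact Poisson 95% intervals, for Tbx21 (top), Eomes (middle) and Zeb2 (bottom). Orange bars are thymic and blue bars hepatic. Tbx21 is highest in C4-, C5-, C7-like and cluster 10 cells, Eomes in C3-like, C7-like and cluster 5 cells, and Zeb2 in C7-like and C8-like cells.

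Against C3-like hepatic cells, the T-box genes differed in opposite directions in C4-like and C5-like cells. The Eomes level of C7-like cells, at 33.7 CPM (22.2 to 49.1), overlapped that of C3-like hepatic cells, at 31.9 CPM (26.4 to 38.3). Over C4-, C5- and C7-like cells together, Tbx21 was 2.06-fold (1.75 to 2.43) the level of C3-like hepatic cells and Eomes 0.155-fold (0.115 to 0.207). In the same comparison Zfp683 was at 3.36-fold (1.99 to 6.10), Bhlhe40 at 2.31-fold (2.14 to 2.50), Prdm1 at 2.15-fold (1.49 to 3.19), Hopx at 1.97-fold (1.56 to 2.51), Zeb2 at 1.88-fold (1.28 to 2.87) and Runx3 at 1.35-fold (1.22 to 1.49). The Zeb2 ratio rests on C7-like cells, which held 209 of the 248 UMIs, since C3-like hepatic cells were at 7.85 CPM (5.26 to 11.3) and C4-like and C5-like cells below them. This gave 4 members at least 2-fold higher and 1 lower, beside 7.8% and 2.66% of 9324 genes. C3-like hepatic cells gave 38.6% of their UMIs to mitochondrial and ribosomal-protein genes and the other group 26.3%. When those UMIs were left out of the totals, all ratios shifted by -0.26 on the log2 scale, Zfp683 alone stayed at least 2-fold higher, at 2.80-fold, and Eomes was at 0.129-fold.

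Against C6-like hepatic cells, the same group of C4-, C5- and C7-like cells was at 4.23-fold for Tbx21 (3.23 to 5.64), 3.87-fold for Hopx (2.66 to 5.87), 3.81-fold for Zfp683 (1.97 to 8.44) and 2.49-fold for Eomes (1.02 to 7.86, from 83 and 5 UMIs). Bhlhe40, at 1.18-fold (1.10 to 1.26), was nearly as high in C6-like cells, the IL-17 class, as in the C4-, C5- and C7-like cells together. Prdm1, Runx3 and Zeb2 lay between 1.51-fold and 1.86-fold. C7-like cells weighed on this comparison too, with 27 of the 83 Eomes UMIs, and the Zeb2 level of C6-like cells, at 7.95 CPM (4.86 to 12.3), lay above those of C4-like and C5-like cells. Thus 4 members were at least 2-fold higher and 0 lower, beside 8.46% and 6.83% of 9353 genes.

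Zeb2 (chromosome 2, minus strand) was concentrated in the C7-like cells, a class of 264 cells whose other leading genes included Klrg1, S1pr5 and Cx3cr1, surface receptors of circulating effector lymphocytes. It was at 261 CPM (227 to 299) there, with up to 7 UMIs in a cell, against 1.83 CPM (1.00 to 3.08) in C5-like and 2.99 CPM (1.94 to 4.42) in C4-like cells. The ratio of C7-like to C5-like cells was 142 (82.9 to 265) and ranged from 104 to 150 over the alternatives. After thinning, 27.8% of C7-like cells had a Zeb2 UMI, and 0.295% of C5-like cells. Zeb2 had no part in forming the cluster, though the genes that named it do vary with it.

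C8-like cells had a Zeb2 level of 308 CPM (257 to 366), which does not differ from that of C7-like cells beyond the intervals. Myeloid transcripts were therefore looked at in the C7-like cells: all 114 cells with a Zeb2 UMI had a CD3 UMI, and 2 of them (1.75%) had a UMI of a Kupffer cell gene against 5 of the 150 without Zeb2 (3.33%). Among C8-like cells with Zeb2, 45 of 70 had a CD3 UMI and 35 a Kupffer cell UMI. A UMI of the C8-like marker genes was present in 32.5% of C7-like cells with Zeb2 and 35.3% of those without. All C7-like cells had a CD3 UMI, so this does not separate cells with Zeb2 from those without, and the C8-like marker genes summed to 186 CPM in C7-like cells against 83.9 CPM in C4-like and 84.8 CPM in C5-like cells. Their part in the Zeb2 level was not tested.

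The thymic pattern of Zeb2 was broad and low. It was at 18.4 CPM (15.7 to 21.5) in C1-like cells, 23.8 CPM (18.8 to 29.8) in cluster 5 and 15.7 CPM (12.1 to 20.1) in cluster 7, while C3-like thymic cells had 8.47 CPM (2.75 to 19.8, 5 UMIs) and C6-like ones 8.23 CPM (2.24 to 21.1), with intervals that overlap the others. Within the C1-like class, cluster 3 had 24.9 CPM (19.9 to 30.7) and cluster 4 had 14.1 CPM (11.1 to 17.7). Its paralog Zeb1 ran from 107 CPM in C1-like thymic cells to 31.4 CPM in C3-like, 27.3 CPM in C4-like, 23.2 CPM in C5-like and 18.7 CPM in C7-like hepatic cells. These Zeb1 levels are given without intervals, so no order among the hepatic classes is read from them.

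Between C7-like and C5-like cells, Eomes was the other member at least 2-fold higher, at 8.04-fold (4.64 to 13.9, from 27 and 32 UMIs), and Zfp683 was at 0.441-fold (0.14 to 1.06, from 5 and 108 UMIs), so 2 were higher and 1 lower beside 3.15% and 7.64% of 7786 genes. The interval of Zfp683 includes equal levels. Tbx21 (1.09-fold, 0.863 to 1.36), Hopx (1.11-fold, 0.754 to 1.59) and Prdm1 (1.20-fold, 0.666 to 2.03) were close to 1, Runx3 was at 0.774-fold (0.644 to 0.925) and Bhlhe40 at 0.625-fold (0.549 to 0.708). Between C5-like and C4-like cells no member reached 2-fold, beside 2.42% of 8927 genes higher and 2.73% lower. There, Runx3 was at 1.53-fold (1.42 to 1.65) and Bhlhe40 at 1.27-fold (1.22 to 1.33) in C5-like cells.

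**Figure D3:**
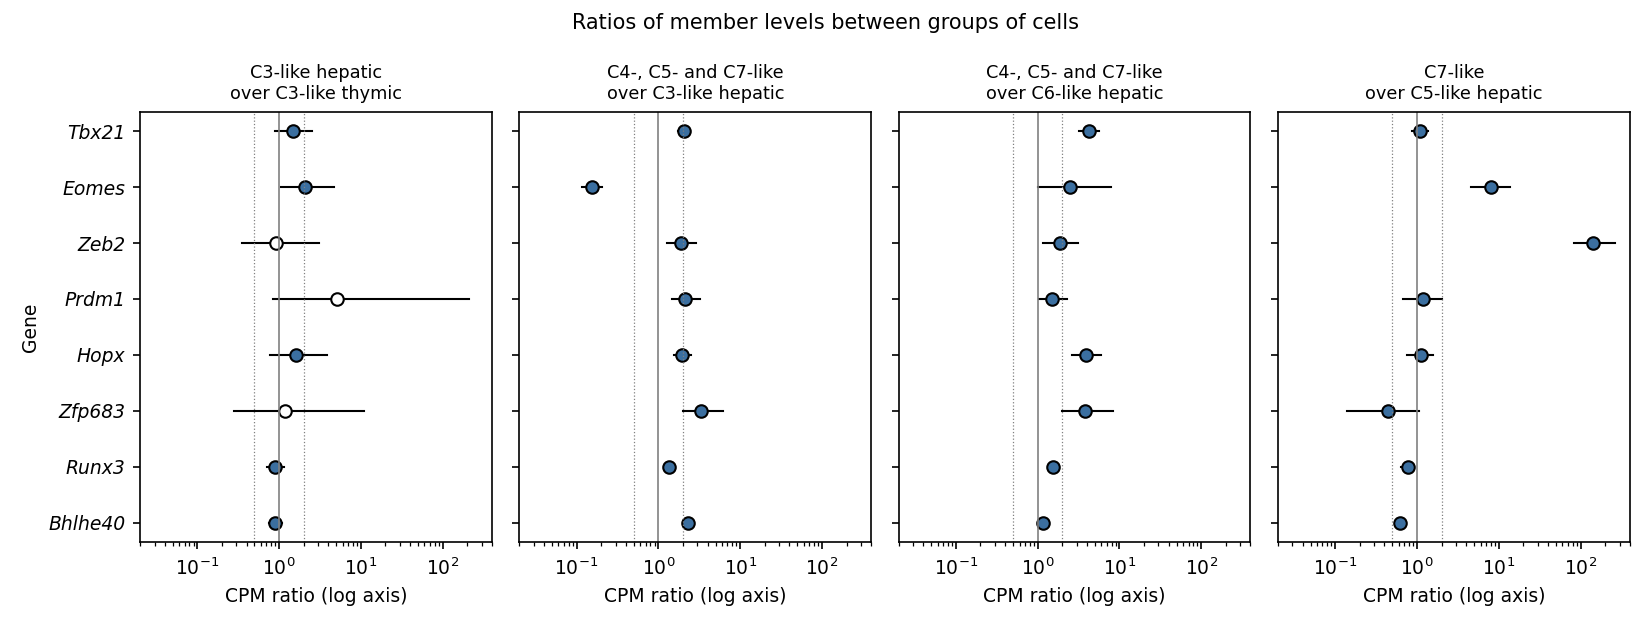
Ratios of CPM on a log axis for the 8 genes in 4 comparisons, with exact 95% counting intervals as lines. Open circles mark genes with fewer than 50 UMIs over both groups, dotted lines stand at 0.5 and 2, and the solid line at 1. Eomes lies at 0.155 in the comparison with C3-like hepatic cells, to the left of every other gene, and Zeb2 at 142 in the comparison of C7-like with C5-like cells.

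Prdm1 (chromosome 10) and Zfp683 (chromosome 4), the genes of Blimp-1 and Hobit, had few UMIs throughout. Prdm1 was at its highest values in cluster 10, at 39.5 CPM (17.0 to 77.8), and in C8-like cells, at 36.4 CPM (20.4 to 60.0). It was at 20.2 CPM (17.3 to 23.5) in C4-like, 16.6 CPM (13.9 to 19.8) in C5-like and 19.99 CPM (11.4 to 32.5) in C7-like cells, which do not differ beyond their intervals, at 12.3 CPM (8.38 to 17.5) in C6-like and at 8.66 CPM (5.92 to 12.2) in C3-like hepatic cells. Its thymic UMIs were 11 in all, 7 of them in C1-like cells, at 0.811 CPM. Zfp683 was at 13.9 CPM (11.5 to 16.6) in C4-like and 14.2 CPM (11.6 to 17.1) in C5-like cells, and at 6.25 CPM (2.03 to 14.6), 4.06 CPM (2.27 to 6.70) and 3.58 CPM (1.64 to 6.79) in C7-like, C3-like and C6-like hepatic cells. The thymus gave 2 Zfp683 UMIs, both in C3-like cells. In C4-like and C5-like cells, each gene had a UMI in between 2.14% and 2.91% of cells.

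Hopx (chromosome 5) was at 47.6 CPM (43.1 to 52.5) in C4-like, 38.3 CPM (34.0 to 42.9) in C5-like and 42.5 CPM (29.4 to 59.3) in C7-like cells. It was at 21.9 CPM (17.4 to 27.3) in C3-like and 11.1 CPM (7.40 to 16.1) in C6-like hepatic cells. The thymus held 15 UMIs, with 8 in C3-like cells (13.5 CPM, 5.85 to 26.7) and 0 in C1-like cells. Cluster 10 was at 54.3 CPM (27.1 to 97.1). As for Tbx21, the C6-like and C3-like classes lay below the C4-, C5- and C7-like ones, which overlapped in part.

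Runx3 (chromosome 4, 135120652 to 135177990, plus strand) was the member with the flattest profile. In the liver it was at 213 CPM (203 to 224) in C5-like, 165 CPM (138 to 196) in C7-like, 139 CPM (131 to 147) in C4-like, 129 CPM (118 to 141) in C3-like, 113 CPM (100 to 127) in C6-like and 75.2 CPM (51.1 to 107) in C8-like cells. Thymic classes lay between 98.8 CPM (72.8 to 131) in C6-like and 153 CPM (140 to 167) in cluster 5, and C1-like cells were at 146 CPM (138 to 155). Only C5-like cells stood above all other named classes beyond the intervals. Within the C1-like class, Runx3 was at 104 CPM (93.9 to 116) in cluster 3 and at 174 CPM (163 to 186) in cluster 4. Of its relatives, Runx1 was at 113 CPM in C1-like thymic and 66.2 CPM in C5-like cells, and the shared partner Cbfb was between 63.5 CPM in C1-like and 104 CPM in C7-like cells.

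Bhlhe40 (chromosome 6, plus strand) divided the C1-like cells and the unnamed thymic clusters from the other classes. It was at 5.10 CPM (3.70 to 6.84) in C1-like cells, 17.6 CPM (13.4 to 22.9) in cluster 5 and 14.3 CPM (10.8 to 18.4) in cluster 7, but at 220 CPM (184 to 261) in C3-like and 128 CPM (97.8 to 164) in C6-like thymic cells. In the liver it was at 199 CPM (185 to 214) in C3-like, 329 CPM (290 to 371) in C7-like, 373 CPM (317 to 437) in C8-like, 392 CPM (368 to 417) in C6-like, 413 CPM (399 to 427) in C4-like and 526 CPM (510 to 542) in C5-like cells. Neighbours in that order from C7-like to C4-like cells overlapped, and C5-like cells stood above every other named class. The relative Bhlhe41 was nearly absent, with 6 UMIs in all hepatic and 12 in all thymic cells. The 52 hepatic cells of cluster 5 lay between those thymic cells and the named hepatic classes, at 73.2 CPM (37.8 to 128).

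C3-like cells allow liver and thymus to be set side by side within a class. Eomes was at 2.10-fold in the liver (1.07 to 4.70), the single member past 2-fold beside 5.25% of 5884 genes higher and 3.89% lower, and it lost that size in 5 of 13 alternatives, down to 1.01-fold at resolution 0.8. Tbx21 was at 1.47-fold (0.904 to 2.55), Hopx at 1.62-fold (0.783 to 3.88), Bhlhe40 at 0.904-fold (0.749 to 1.10) and Runx3 at 0.897-fold (0.711 to 1.14), all with intervals that include equal levels, and 3 members had too few UMIs to count. Among the effector genes listed beside the members, 5 of 9 with enough UMIs were at least 2-fold higher in the liver, with Ccl5 at 3.18-fold and Ccl4 at 14.99-fold, and the cytokine gene Ifng was at 4.38-fold. The recirculation genes S1pr1, Klf2 and Ccr7 were at 2.02-fold, 3.73-fold and 3.89-fold.

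Within the thymus, C3-like against C1-like cells gave 43.2-fold for Bhlhe40 (30.5 to 62.3), 0.984-fold for Runx3 (0.780 to 1.23) and 0.46-fold for Zeb2 (0.147 to 1.10, from 5 and 159 UMIs). Tbx21 had 18 UMIs in C3-like and 0 in C1-like cells, so its level was at least 64.3-fold higher by the exact interval, and 87.7-fold when a group floor of 3 UMIs stands for the 0. For Hopx (8 and 0 UMIs) these were at least 24.95-fold and 39.0-fold. Of the 3 members with 50 UMIs or more, 1 was higher and 1 lower, beside 5.9% and 20.5% of 8224 genes. Zeb2 left the lower side in 3 of 13 alternatives, with 0.986-fold at resolution 0.8.

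In C6-like cells, Bhlhe40 was at 3.07-fold in the liver over the thymus (2.37 to 4.04), Runx3 at 1.14-fold (0.840 to 1.59), and Tbx21 had 55 UMIs against 0, at least 2.79-fold higher by the exact interval and 3.54-fold with the floor of 3 UMIs. This put 2 of 3 counted members past 2-fold, beside 6.56% of 5243 genes higher and 2.17% lower. With the highest doublet scores removed, Tbx21 had 33 UMIs over both groups and was no longer counted. All 9 counted effector genes were at least 2-fold higher in hepatic C6-like cells, with Ccl5 at 105-fold. Of the listed genes of the type-1 cytokine axis, 2 of 7 counted were at least 2-fold higher. Ifng, a gene of that axis, was at 75.4-fold. NK cell markers summed to 497 CPM in hepatic C6-like cells against 14.4 CPM in thymic ones. The part of those markers in these differences was not tested.

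The number of members detected in a cell differed between the classes. After thinning to 1500 UMIs, the mean was 0.215 members in C1-like, 0.273 in thymic cluster 5, 0.303 in thymic C6-like, 0.547 in thymic C3-like and 0.564 in hepatic C3-like cells, then 0.599 in hepatic C6-like, 0.836 in C4-like, 1.02 in C5-like and 1.11 in C7-like cells. C8-like cells had 0.895 and cluster 10 had 0.928, both above C4-like cells. The mean adds up the shares of the 8 genes, so it follows the often detected ones and does not grade a type-1 programme. Bhlhe40 was found in 37.1% of hepatic C6-like and 21.2% of hepatic C3-like cells, and Runx3 in 16.0% and 17.5%. Tbx21 was found in 2.39% and 6.62% of the same cells. No member was seen in 79.0% of C1-like cells, against 28.3% of C5-like and 31.2% of C7-like cells. At most 5 members were seen in a single cell, in the C7-like class. At this depth a cell with no UMI may still hold the transcript.

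**Figure D4:**
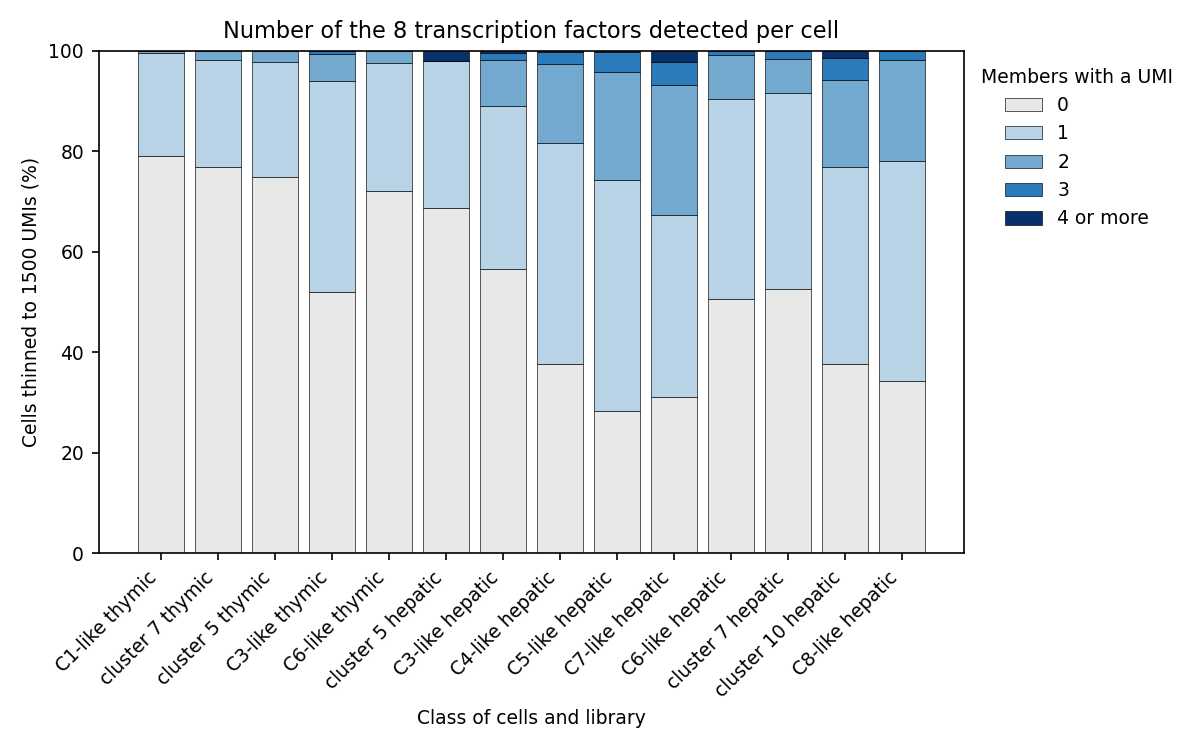
Each bar divides the thinned cells of a class by how many of the 8 genes had a UMI, from none (pale) to 4 or more (dark), in percent. The palest part takes 79.0% of C1-like thymic cells and 28.3% of C5-like hepatic cells.

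Co-detection was compared with the product of the 2 genes' shares, the number of shared cells that independent detection would give. For the T-box pair, C3-like hepatic cells held 6 cells with both (interval 2.20 to 13.1) against a product of 3.25, from 74 Tbx21 and 49 Eomes cells of 1117. C4-like cells held 0 against 1.26, C5-like 1 against 1.99 and C7-like 1 against 1.60. Without thinning the counts were 16 against 11.7 in C3-like, 4 against 4.70 in C4-like, 2 against 6.32 in C5-like and 3 against 4.70 in C7-like cells. The unthinned C5-like interval (0.242 to 7.22) includes the product, so neither joint nor separate detection of the pair could be seen at this depth.

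Tbx21 and Zeb2 were found together in 15 C7-like cells (8.40 to 24.7) against a product of 9.71, from 35 and 73 of 263 cells. Without thinning there were 33 cells (22.7 to 46.3) against 29.8, and after thinning to 1000 UMIs 3 against 7.85, so the thinned counts moved to either side of the product. Tbx21 and Runx3 gave 69 against 61.4 in C4-like, 110 against 98.6 in C5-like and 13 against 7.05 in C7-like cells. Runx3 and Bhlhe40, the most often detected pair, gave 227 against 220 in C4-like and 374 against 373 in C5-like cells. Hopx and Runx3 gave 29 against 36.5 and 32 against 41.8 in the same classes.

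Across the 58 pairs and classes of the 5 main hepatic classes with a product of at least 3 cells, the interval of the observed count held the product in all 58. These intervals treat the joint count as Poisson, without the limit that the 2 genes' shares set on it. They are wide for often detected genes, so holding the product does not show independent detection. The ratio of observed to product ran from 0.291 to 2.22 with a median of 1.11. The pairs share cells, so they are not independent. Outside this set, Eomes and Zeb2 met in 4 cells of thymic cluster 5 against a product of 1.05 and in 4 C3-like hepatic cells against 0.614. Without thinning these were 9 cells (4.12 to 17.1) against 3.03 in cluster 5 and 6 cells (2.20 to 13.1) against 2.18 in C3-like hepatic cells, intervals that lie above the product. Counts without thinning can exceed the product because deeper cells more often have both genes, and the part of depth was not tested. These pairs were singled out after their values were seen.

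Within a class, cells with a member differed from the others in some companion genes. In C7-like cells, 6 of 18 cells with an Eomes UMI (33.3%) had a UMI of Tyrobp or Fcer1g, against 212 of 246 cells without (86.2%), and all 18 had a CD3 UMI. In C3-like hepatic cells the same markers were found in 73 of 94 Eomes cells (77.7%) and 64.7% of the others. Without thinning, the Eomes cells of the C7-like class thus held these adaptor genes less often than the rest of their class. Those of the C3-like class did not. Deeper cells have more genes with a UMI, and the part of depth in these shares was not tested.

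In C3-like hepatic cells, Bhlhe40 was detected together with Ifng in 135 cells against a product of 94.8, with Xcl1 in 137 against 103 and with Klrb1c in 62 against 40.5. With genes of less differentiated T cells the counts were below the product, at 20 against 38.2 for Ccr7, 50 against 69.8 for Tcf7, 41 against 59.6 for Lef1 and 16 against 29.3 for Id3. In C7-like cells, Zeb2 was found with S1pr5 in 24 cells against 13.3 and with Ncr1 in 14 against 6.38. It was found with Cxcr6, a receptor of liver-resident cells, in 9 cells against 18.0 and with the chemokine gene Xcl1 in 14 against 26.6. These are the pairs that lay farthest from the product and were picked after their values were seen.

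The listed companion genes give the setting of the members. From C3-like hepatic cells to C4-, C5- and C7-like cells, 2 of 9 genes of the type-1 cytokine axis were at least 2-fold higher (Il12rb1 at 2.70-fold and Il12rb2 at 2.84-fold), beside 10 of 13 effector genes and 3 of 5 tissue residence genes, with the residence gene Itgae lower at 0.477-fold. Of all 9324 genes, 7.8% were higher and 2.66% lower. Ifng itself was at 1.71-fold and Stat4, the IL-12 signal transducer, at 1.10-fold. Of 10 transcription factors of other programmes, 7 had enough UMIs, 1 was higher (Maf at 3.49-fold) and 4 were lower, with Tcf7 at 0.114-fold and Id3 at 0.311-fold. Several of these companions were among the genes that formed or named the clusters, so their differences describe the classes. Id2, a partner of type-1 fate, was at 53.2 CPM in C1-like thymic cells, 625 CPM in C3-like hepatic cells and 1295 CPM in C4-like cells.

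Across the 14 classes and clusters with at least 20 cells in a library, the genes most like each member were found by Pearson correlation of log2(CPM + 10) among 4297 genes. The points share 2 libraries and no p applies. Tbx21 was most like Lamb3 (r = 0.963), Gimap4 (0.962) and Fasl (0.948), the last a death ligand of cytotoxic cells. Zeb2 was most like Cx3cr1 (0.932), Ccl9 (0.910) and Snx10 (0.897). Hopx was most like Klrc2 (0.960), Gm19585 (0.956) and Arl4d (0.954), and Zfp683 most like Rhoc (0.949), Padi2 (0.938) and Abcb1a (0.926). Bhlhe40 was most like Myo1f (0.966), Icam1 (0.953) and H2-K1 (0.946), and Prdm1 most like Gcnt2 (0.924), Lilr4b (0.923) and Tap1 (0.919). Over the 9 hepatic points alone, the values for Bhlhe40 were lower, at 0.890, 0.851 and 0.783. Fasl was lower too, at 0.845 with Tbx21, while Cx3cr1 was higher, at 0.976 with Zeb2. Runx3 (Crbn 0.885, A630072M18Rik 0.869, Rab37 0.842) and Eomes (Atp11b 0.821, 1700025G04Rik 0.806, Cd2 0.770) had no gene above 0.9 over the 14 points, though over the 9 hepatic ones A630072M18Rik reached 0.982 with Runx3 and 1700025G04Rik 0.923 with Eomes. Among the members themselves, Hopx and Zfp683 (0.875), Hopx and Tbx21 (0.852) and Hopx and Bhlhe40 (0.829) were most alike, while Tbx21 and Eomes stood at 0.411 and Tbx21 and Zeb2 at -0.118. Over the 9 hepatic points alone, Runx3 and Tbx21 were the most alike pair (0.856, against 0.445 over all 14), Hopx and Tbx21 stood at 0.698 and Bhlhe40 and Tbx21 at 0.250 (0.748 over all 14).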

How the data were processed

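Single-cell 3′ libraries were made by the authors from sorted hepatic and thymic γδ T cells, 1 per tissue, and the deposited matrices hold raw UMI counts per gene and barcode. The submitters' processing notes name Cell Ranger, Seurat 3.0 and mm10. The labels and the study's methods name different sequencers. The thymic matrix held 2 stray text lines, which were skipped.

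Cells with 800 to 4000 genes and at most 6% mitochondrial UMIs were kept and clustered together in Seurat 5.3.0 (R 4.3.3) on 1996 variable genes, after 4 of the 8 members had been taken out of 2000, with 30 principal components and resolution 0.6. A cluster was named when the mean log2 ratio of a class's markers to the other clusters (10 CPM added) was at least 0.5, led the next class by 0.2 and rested on at least 3 detected markers, unless at least 2 of its 10 leading genes were cycling, interferon, B cell or erythroid genes or its leading genes held more markers of another class. The names are rebuilt, and may differ from those of the study. Scrublet (scanpy 1.11.5, expected 5%) marked 4 hepatic and 2 thymic cells, so it had not worked and doublets were kept.

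UMIs were summed per class. A gene was counted in a comparison with at least 50 UMIs over both groups and called at 2-fold, with a floor of 3 UMIs over the group against 0. Intervals (95% level) and floors cover no more than counting error. As each tissue gave 1 library, no test across samples was possible. Co-detection used 28 pairs in classes of at least 100 thinned cells (seed 11). Likeness used genes with at least 50 UMIs and at least 50 CPM in 1 class. The scripts were tested on simulated counts. Python 3.11.15, numpy 2.4.6, scipy 1.17.1, pandas 2.3.3 and matplotlib 3.10.9 were used.

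The genes named are the 8 members, 47 listed companion genes and, for each member, the 3 genes most like it. Members and lists were chosen with earlier results of these data known. Alternatives changed the clustering, the cell filters, the scaling, the fold, the UMI minimum and the thinning. Removing the barcodes found in both libraries was added after seeing the data. The result of 1 companion list is not reported here in full.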

Additional observations from a re-analysis of the deposited data

Results flagged for a closer look

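Bhlhe40 differed in opposite directions between the C3-like and C6-like classes of the 2 tissues. In the liver its level in C3-like cells was 0.508-fold that of C6-like cells (0.461 to 0.559), and in the thymus 1.73-fold (1.27 to 2.37). Each tissue gave 1 library, so the difference between the tissues was not tested.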

How the results depend on the processing

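Of 240 recomputed counts of members past the fold, 221 stayed within 1.5 times the reported count, and no ratio's call reversed. In C3-like cells, liver over thymus, the 1 higher member (Eomes) became 0 at resolution 0.8, with 20 principal components, with the naming markers left out, with at least 500 genes per cell and with the mean of the cells' own CPM, and 2 at a fold of 1.5 and with at least 20 UMIs. For thymic C3-like over C1-like cells, the 1 lower member (Zeb2) became 0 at resolution 0.8, with at least 500 genes per cell and with the mean of the cells' own CPM. For C7-like over C5-like cells, the 1 lower member (Zfp683) became 0 with 20 principal components and with the highest Scrublet scores removed, and 2 at a fold of 1.5, and the 2 higher members became 1 with the naming markers left out, where Eomes had 49 UMIs and a ratio of 5.47. Removing the highest Scrublet scores left 1 of 2 higher members in C6-like cells, and gave 1 for C5-like over C4-like cells (Eomes, 2.00-fold), and a fold of 1.5 gave 1 as well (Runx3, 1.53-fold). Totals without mitochondrial and ribosomal-protein UMIs left 1 of 4 higher members for C4-, C5- and C7-like over C3-like hepatic cells, and a fold of 1.5 gave 7 in place of 4 over C6-like cells. Hopx and Zeb2 lay close to 2-fold over C3-like hepatic cells and passed it under 7 and 6 alternatives. Of 832 recomputed levels, 787 stayed within their interval, and shares moved with the thinning, with 52 of 128 inside. The cause of these changes was not tested where a smaller number of UMIs or the fold itself does not show it. No paired analysis was possible because each tissue has 1 library. Depth limits the smaller classes, with 163983 UMIs in hepatic cluster 5 and 486047 in thymic C6-like cells.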
